A study of Mus musculus with 5 samples.

Results

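The tubulin folding cofactors and a group of microtubule regulators were followed in mouse colon with chemically induced colitis. The genes were taken by symbol and comprise the 5 cofactor genes Tbca, Tbcb, Tbcc, Tbcd and Tbce, the GTPase gene Arl2, the tubulin mRNA decay factor gene Ttc5, and the regulator genes Stmn1, Mapre1 and Map4. All 10 were found among the 55471 genes of the deposited tables, and all 10 passed the filter on low counts. The samples were 3 colon pieces from propyzamide-treated mice and 2 from vehicle-treated mice. All mice were male C57BL/6 animals, 11 weeks old, with colitis induced by TNBS (trinitrobenzene sulfonic acid, a hapten that inflames the colon), and tissue was taken 3 days after induction. Propyzamide is a weed killer known to stop plant microtubules from assembling. The comparison was propyzamide against vehicle within TNBS colitis, and mice without TNBS were not analysed here. The labels give neither the dose nor the segment of colon. They also do not say that every library came from its own animal, so the p-values below speak only for the spread among these 5 libraries.

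Microtubules are polymers of alpha and beta tubulin pairs. A newly made tubulin chain is carried by prefoldin to the CCT chaperonin, after which cofactors A and B hold beta and alpha tubulin, cofactors D and E take them over, and cofactor C with the GTPase ARL2 releases the finished pair. When unassembled tubulin rises in a cell, TTC5 recognises the start of tubulin chains emerging from ribosomes and brings about decay of their mRNAs, a feedback known from cultured mammalian cells treated with microtubule-depolymerising drugs. Stathmin, the Stmn1 product, binds tubulin pairs and favours disassembly. EB1, the Mapre1 product, tracks growing plus ends, and MAP4 binds along the microtubule wall in cells outside the nervous system.

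None of the 10 genes was called between propyzamide and vehicle. The largest differences were in opposite directions, with Tbca at a log2 fold change of 0.73 and Tbcd at -0.68, and every 95% interval included 0. In edgeR's quasi-likelihood test 0 of the 10 had an adjusted p under 0.05, beside 1.90% of the 12024 genes tested (0.690% higher and 1.21% lower), and 0 of the 10 had an unadjusted p under 0.05, beside 18.2% of all genes. DESeq2 and limma also called 0 of the 10. The groups did not overlap for 1 of the 10 genes, Tbca, beside 37.5% of all genes tested. The median log2 fold change was -0.012 over the 10 genes and -0.018 over all genes. Of the 10, 5 were positive and 5 negative, beside 49.1% positive over all genes. The median size of the fold change, without its sign, was 0.20 (log2) over the 10 genes and 0.54 over all genes.

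The libraries held 1882235 to 2706885 estimated counts in propyzamide and 1573700 and 2258237 in vehicle, and the 10 genes had 8 to 301 counts each per library. Loci that resemble ribosomal RNA and mitochondrial genes took much of each library, which left 823560 to 1328836 counts in propyzamide and 1001948 and 829260 in vehicle. Background, taken from odorant and pheromone receptor genes in counts per kilobase, was 0.0802, 0.639 and 0.191 in propyzamide and 1.25 and 0.780 in vehicle. The groups carried different second index sequences, with 0 shared, so index batch and treatment cannot be told apart. Epithelial markers summed to 6166 to 8391 CPM (counts scaled to a common library size) in propyzamide and 6863 and 5916 CPM in vehicle, with all 10 detected in every library. Smooth-muscle markers, all 12 of them with positive fold changes and 0 called, summed to 6685, 10526 and 11418 CPM in propyzamide and to 616 and 4203 CPM in vehicle. Over all genes tested, 49.1% had positive fold changes and 1.90% were called. Hoxd13, a homeobox gene of the hindmost gut, had 0 counts in the 3 propyzamide libraries and 81 and 91 counts in vehicle, and Slc10a2, the ileal bile acid transporter, had 40, 116 and 128 counts in propyzamide and 3 in each vehicle library. Fabp2, a fatty acid binding protein of the small intestine, had 670, 1630 and 744 counts in propyzamide and 18 and 5 in vehicle. Car1, a carbonic anhydrase gene of large-bowel epithelium, was also higher in propyzamide, with 7162, 5507 and 10016 counts against 2101 and 1707 in vehicle. Its groups did not overlap, and it was not called (edgeR adjusted p = 0.0845). The labelled tissue is colon for all 5 and no segment is given, so a difference in the segment sampled and the treatment cannot be told apart. The part of these differences in any result below was not tested. In whole tissue, fewer cells of a type and less RNA per cell cannot be told apart.

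TTC5 reads the start of tubulin chains, and the coding starts of the tubulins are shown for that reason, since the factor acts on these messages as they are translated. The sequences were read from GENCODE M21 transcripts (GRCm38) and run 5′ to 3′ from the start codon, with the first 4 codons in capitals. Tuba1a and Tuba1b are on the minus strand with start codons at chr15:98953451-98953453 and chr15:98934333-98934335, Tubb5 and Tubb4b are on the minus strand at chr17:35838051-35838053 and chr2:25224588-25224590, and the gamma tubulin gene Tubg1 is on the plus strand at chr11:101120194-101120196.
Tuba1a: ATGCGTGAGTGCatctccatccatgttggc
Tuba1b: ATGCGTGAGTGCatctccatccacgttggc
Tubb5: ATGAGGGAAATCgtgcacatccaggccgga
Tubb4b: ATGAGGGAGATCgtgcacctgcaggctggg
Tubg1: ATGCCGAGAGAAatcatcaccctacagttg
The capitals of Tuba1a and Tuba1b are identical. Against Tuba1b, the 12 capital letters differ at 5 positions in Tubb5, at 4 in Tubb4b and at 8 in Tubg1, whose product seeds microtubules. These are differences in bases, and different codons can encode the same amino acid. They therefore do not measure how far the chains that TTC5 reads differ.

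The order of levels was read from summed TPM (a length-corrected level that the authors computed), as the median over the 5 libraries. Tbca stood first at 138 TPM, and it was the highest of the 10 in all 5 libraries. Tbcb followed at 63.9 TPM and Stmn1 at 31.9 TPM, and these neighbours changed places in vehicle replicate 1, where Stmn1 was at 85.9 TPM and Tbcb at 72.8 TPM. Map4 at 21.0, Mapre1 at 13.8, Arl2 at 12.5, Tbce at 10.95, Ttc5 at 8.82, Tbcc at 7.37 and Tbcd at 6.78 TPM made up the rest. Among these 7 the neighbours from Map4 down changed places between libraries, so that Tbcd had rank 5 in propyzamide replicate 1 and vehicle replicate 1 and rank 10 in vehicle replicate 2. The cofactors covered the range of the group, from Tbca at the top to Tbcd and Tbcc at the bottom. These sums include transcripts not annotated as protein coding. Such transcripts held most of the TPM of Tbcb, Tbcd, Tbce and Arl2 in every library, and of Mapre1 in vehicle replicate 1. The coding Tbcb-201 was at 17.2, 13.8 and 7.84 TPM in propyzamide and 26.8 and 16.3 TPM in vehicle, below the coding Stmn1-201 in every library.

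Cofactor A, which holds folded beta tubulin, was the single gene whose groups did not overlap. Tbca (chromosome 13, 94788910 to 94842922) was at 47.2, 78.0 and 46.9 CPM in propyzamide, against 35.6 and 33.5 CPM in vehicle. All 3 propyzamide libraries lay above both vehicle libraries, with replicate 2 set apart from the other propyzamide libraries. The means were 57.4 ± 17.9 CPM (SD, n = 3) in propyzamide and 34.5 ± 1.48 CPM (SD, n = 2) in vehicle. The log2 fold change was 0.73 ± 0.38 (SE), with a 95% interval of -0.086 to 1.55 and an edgeR adjusted p of 0.333. It was 0.43 without propyzamide replicate 2.

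Cofactor B, which takes alpha tubulin from the chaperonin, showed a smaller difference. Tbcb (chromosome 7, 30224131 to 30232272) was at 40.1, 43.1 and 26.2 CPM in propyzamide, against 29.0 and 36.3 CPM in vehicle. The groups overlapped, since propyzamide replicate 3 was the lowest of the 5. Its estimated log2 fold change was 0.17 ± 0.37 (SE), with an interval of -0.65 to 0.98 (edgeR adjusted p = 0.868).

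The cofactors of the later steps all stood below 0 in the estimate, with wide intervals. Tbcd, whose product takes beta tubulin from cofactor A and binds ARL2 (chromosome 11, 121451949 to 121617164), was at 26.8, 7.70 and 14.0 CPM in propyzamide, against 31.0 and 21.6 CPM in vehicle. Propyzamide replicate 1 lay between the vehicle libraries and the other propyzamide libraries lay below them. Its log2 fold change was -0.68 ± 0.50 (SE), with an interval of -1.77 to 0.41 (edgeR adjusted p = 0.530), and it was -1.33 without propyzamide replicate 1 and -0.36 without propyzamide replicate 2. Zfp750, an epidermal differentiation gene that overlaps Tbcd on the opposite strand, had 19, 0 and 0 counts in propyzamide and 54 and 22 counts in vehicle. B3gntl1, which also overlaps Tbcd on the opposite strand, had 12, 1 and 2 counts in propyzamide and 5 and 10 in vehicle. Coding genes on the opposite strand also overlap Tbce, Arl2 and Tbcb. B3galnt2, which overlaps Tbce, had 46, 21 and 11 counts in propyzamide and 33 and 30 in vehicle. Batf2, which overlaps Arl2, had 41, 4 and 13 counts in propyzamide and 22 and 36 in vehicle. Polr2i, which overlaps Tbcb, had 27, 34 and 23 in propyzamide and 17 and 16 in vehicle. Whether the counting used strand is not given in the sources used here, and the part of such overlap in these values was not tested.

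Tbce encodes the alpha tubulin cofactor that forms the late complex with cofactor D (chromosome 13, 13997949 to 14039638). It was at 11.6, 10.8 and 9.13 CPM in propyzamide, against 14.5 and 9.65 CPM in vehicle, and the groups overlapped. The log2 fold change was -0.20 ± 0.50 (SE; interval -1.28 to 0.88; edgeR adjusted p = 0.879). Tbcc, the cofactor that triggers GTP hydrolysis in the late complex (chromosome 17, 46890684 to 46891847), was at 6.46, 4.11 and 13.4 CPM in propyzamide, against 10.3 and 9.65 CPM in vehicle. Propyzamide libraries lay on both sides of the vehicle pair, with 8 to 22 counts in propyzamide and 25 and 17 in vehicle. The log2 fold change of Tbcc was -0.35 ± 0.62 (SE; interval -1.69 to 1.001; edgeR adjusted p = 0.833), and it was -0.90 without propyzamide replicate 3 and -0.058 without propyzamide replicate 2.

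Arl2, the GTPase that works with cofactors C, D and E, was the most even of the 10 across libraries within propyzamide after Tbce. Arl2 (chromosome 19, 6134374 to 6141548) was at 12.2, 13.9 and 15.8 CPM in propyzamide, against 16.5 and 14.2 CPM in vehicle. The groups overlapped. Its log2 fold change was -0.15 ± 0.45 (SE), with an interval of -1.11 to 0.82 and an edgeR adjusted p of 0.908.

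Ttc5 differed most within a group. Ttc5 (chromosome 14, 50765415 to 50785519) was at 7.82, 6.16 and 33.5 CPM in propyzamide, against 16.96 and 17.59 CPM in vehicle. Propyzamide replicates 1 and 2 lay below both vehicle libraries and propyzamide replicate 3 above them, so that the highest propyzamide library was 5.44 times the lowest, while the vehicle libraries stood within 1.04 times of each other. The log2 fold change was -0.16 ± 0.65 (SE; interval -1.57 to 1.25; edgeR adjusted p = 0.932). Without propyzamide replicate 3 it was -1.29, and it was 0.14 without propyzamide replicate 1 and 0.20 without propyzamide replicate 2, with edgeR adjusted p of 0.298, 0.933 and 0.917. The direction of the Ttc5 estimate rested on single propyzamide libraries, which had 23, 12 and 55 counts.

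The 3 regulator genes Mapre1, Stmn1 and Map4 had estimates above 0 in the reported fit. Mapre1 (chromosome 2, 153741274 to 153773310) was at 93.5, 116 and 58.4 CPM in propyzamide, against 60.4 and 65.3 CPM in vehicle. Propyzamide replicates 1 and 2 were above the vehicle libraries, and replicate 3 was just below them. Its estimate stood at 0.51 ± 0.37 (log2, SE; interval -0.30 to 1.32; edgeR adjusted p = 0.524), and it was 0.27 without propyzamide replicate 2. The direction turned to -0.57 with limma on log2(TPM + 1), -0.61 with limma on log2(TPM + 0.1) and -0.11 with the average transcript length offset. With limma the median of all genes was itself at -0.39 and -0.47.

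Stmn1, the tubulin-sequestering stathmin that is abundant in dividing cells (chromosome 4, 134468320 to 134473843), was at 57.1, 34.9 and 35.3 CPM in propyzamide, against 43.8 and 30.1 CPM in vehicle. The groups overlapped, and replicate 1 was the highest in each group. The log2 fold change was 0.20 ± 0.38 (SE; interval -0.63 to 1.04; edgeR adjusted p = 0.843). It turned to -0.12 without propyzamide replicate 1 and to -0.23 with limma on log2(TPM + 1) and on log2(TPM + 0.1). In those limma fits the median of all genes was lower than Stmn1, at -0.39 and -0.47. Of the markers of cycling cells, 15 of 15 were tested, with 9 positive (beside 49.1% of all genes) and 0 called. They summed to 398, 132 and 217 CPM in propyzamide and to 278 and 173 CPM in vehicle, with Aurkb at 0 in propyzamide replicate 2. Replicate 1 was again the highest in each group, and the part of cycling cells in the Stmn1 values was not tested.

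Map4 (chromosome 9, 109931460 to 110083955) had the highest mean CPM of the 10 genes. It was at 102, 88.8 and 116 CPM in propyzamide, against 66.2 and 122 CPM in vehicle, so all 3 propyzamide libraries lay between the vehicle libraries. For Map4 the log2 fold change was 0.12 ± 0.37 (SE), with an interval of -0.67 to 0.92 and an edgeR adjusted p of 0.906. It was 0.68 without vehicle replicate 2 and turned to -0.28 without vehicle replicate 1. Map4 also turned to -0.47 with limma on log2(TPM + 1), to -0.49 on log2(TPM + 0.1) and to -0.14 with the transcript length offset.

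**Figure D1:**
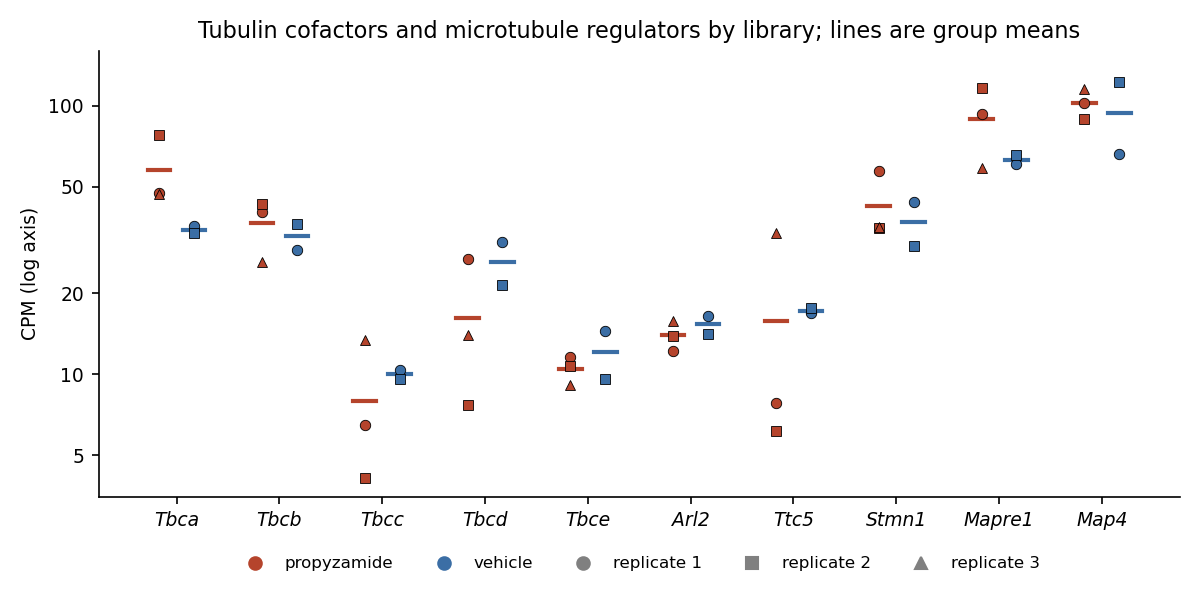
CPM of the 10 genes (log axis), with 3 propyzamide libraries left of 2 vehicle libraries for each gene, marker shapes for the replicate and short lines for group means. Tbca is the gene whose groups do not overlap, and Ttc5 has its propyzamide libraries on both sides of vehicle, at 6.16, 7.82 and 33.5 CPM.

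**Figure D2:**
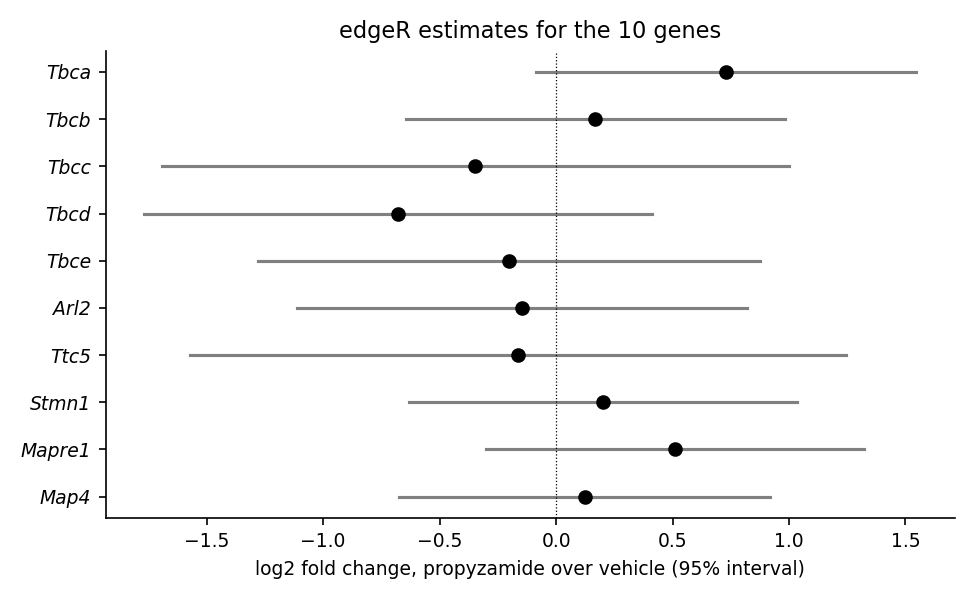
edgeR log2 fold changes of the 10 genes, propyzamide over vehicle, as points with 95% intervals as lines. All 10 intervals cross 0, from Tbca at 0.73 to Tbcd at -0.68.

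Leaving out a library or changing a setting moved several estimates across 0 but called none. Over 16 alternative settings and 10 genes, 0 of 160 estimates had an adjusted p under 0.05, and the lowest was 0.158, for Tbcd without propyzamide replicate 1. The sign was kept in all 16 settings for Tbca, Tbcc and Tbcd, in 15 for Tbcb, Tbce and Arl2, in 14 for Ttc5, in 13 for Stmn1 and Mapre1, and in 12 for Map4. The Tbca estimate ranged from 0.27 to 0.85, and the Tbcd estimate from -1.33 to -0.36.

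**Figure D3:**
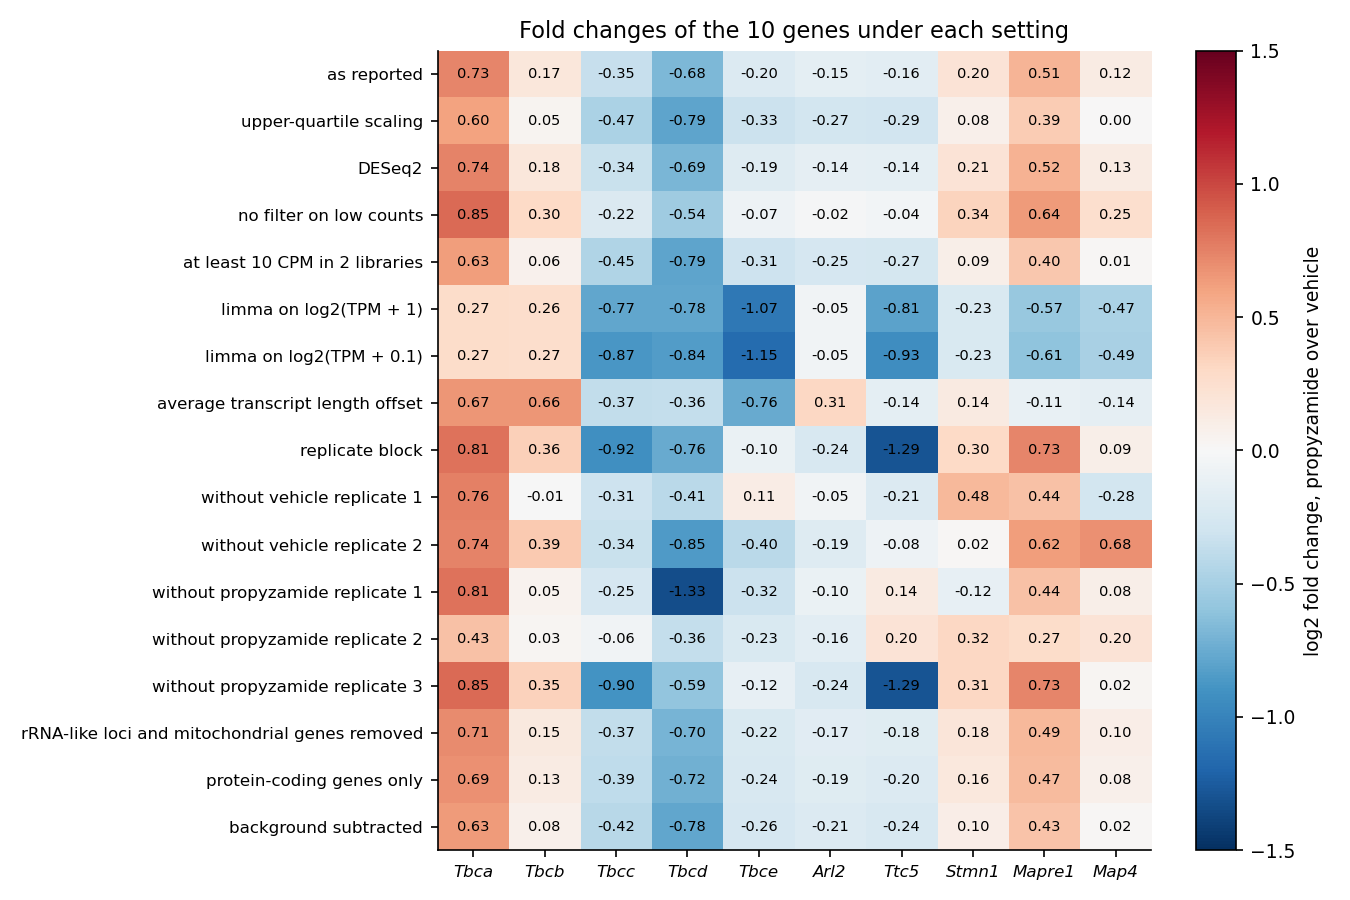
Log2 fold changes, propyzamide over vehicle, of the 10 genes (columns) under the reported fit and 16 alternatives (rows), with red for higher and blue for lower in propyzamide and the value printed in each cell. Tbca is positive and Tbcc and Tbcd are negative in every row, while Mapre1 and Map4 are negative in the rows that use TPM or a transcript length offset.

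At the level of single transcripts, which the deposited tables give as RSEM estimates, edgeR called 0 of 16682 tested (0%), with 1696 (10.2%) at an unadjusted p under 0.05. For Mapre1, the coding transcript Mapre1-201 was at 13.8, 12.5 and 6.25 TPM in propyzamide and at 13.1 and 6.67 TPM in vehicle. The noncoding Mapre1-203, which is 483 bases long against 7336 for Mapre1-201, was given 0, 5 and 0 counts in propyzamide and 7 and 3 counts in vehicle. Those few counts made up 0%, 32.8% and 0% of the gene's TPM in propyzamide and 55.1% and 42.1% in vehicle. In TPM the groups overlapped for Mapre1-201, for Mapre1-203 and for the gene sum.

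Arl2 counts were divided differently among its transcripts in the 5 libraries. Arl2-205, a noncoding transcript, had 32, 18 and 6 counts in propyzamide and 0 in both vehicle libraries (edgeR adjusted p = 0.358). Arl2-203, which retains an intron, had 4, 4 and 0 counts in propyzamide and 18 and 12 in vehicle (edgeR adjusted p = 0.527). The coding Arl2-201 had at most 10 counts in any library, namely 0, 5 and 10 in propyzamide and 7 and 4 in vehicle. For Tbcb the coding share of TPM was 18.3%, 21.6% and 18.2% in propyzamide and 36.9% and 42.5% in vehicle. The coding share of its counts was larger, at 50.3%, 50.6% and 48.9% in propyzamide and 69.8% and 73.7% in vehicle. The groups did not overlap for the TPM share, as for 30.6% of 14478 transcript shares over all genes. The rest of Tbcb was assigned to Tbcb-202, which retains an intron, and to Tbcb-203, a noncoding transcript of 396 bases that had 21, 0 and 8 counts in propyzamide and 0 in vehicle.

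Tbce was assigned to transcripts that retain introns or are subject to nonsense-mediated decay in 4 of the 5 libraries. The single coding Tbce transcript held 38.5% of the gene's counts and 24.2% of its TPM in propyzamide replicate 1, and 0% in the other 4 libraries. Tbcd counts went mainly to the coding Tbcd-201, at 36, 3 and 10 counts in propyzamide and 43 and 20 in vehicle, and the noncoding Tbcd-204, at 28, 10 and 11 counts in propyzamide and 16 and 10 in vehicle. The noncoding Tbcd-206 had 6, 0 and 0 counts in propyzamide and 8 and 0 in vehicle. It made up 22.2% of Tbcd TPM in propyzamide replicate 1 and 35.2% in vehicle replicate 1. Ttc5 counts went mainly to the coding Ttc5-201 in 4 of the 5 libraries, with 16, 12 and 47 counts in propyzamide and 27 and 15 in vehicle. The coding Ttc5-202 had 7, 0 and 0 counts in propyzamide and 12 and 14 in vehicle, and so nearly equalled Ttc5-201 in vehicle replicate 2. Tbca and Stmn1 were simpler, with Tbca-201 at 84.8% to 100% and Stmn1-201 at 92.5% to 100% of the gene's TPM. The division of reads among overlapping transcripts is an estimate whose error was not tested.

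Map4 has an upstream and a downstream start in the RefSeq table, and the 250 bases before each RefSeq start are shown because the Map4 results divide by start. In GENCODE the gene begins at 109931460, ahead of the upstream window, so that window lies inside the gene as annotated there. The sequences are from RefSeq (GRCm38.p6, plus strand), at chr9:109931524-109931773 for the upstream start and chr9:110051771-110052020 for the downstream start, with CG pairs in capitals.
Upstream: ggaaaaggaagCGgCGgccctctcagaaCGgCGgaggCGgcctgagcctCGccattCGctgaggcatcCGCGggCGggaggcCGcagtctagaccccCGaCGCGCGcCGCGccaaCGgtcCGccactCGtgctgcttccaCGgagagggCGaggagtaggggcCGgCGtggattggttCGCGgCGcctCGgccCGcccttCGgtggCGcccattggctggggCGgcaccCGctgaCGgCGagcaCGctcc
Downstream: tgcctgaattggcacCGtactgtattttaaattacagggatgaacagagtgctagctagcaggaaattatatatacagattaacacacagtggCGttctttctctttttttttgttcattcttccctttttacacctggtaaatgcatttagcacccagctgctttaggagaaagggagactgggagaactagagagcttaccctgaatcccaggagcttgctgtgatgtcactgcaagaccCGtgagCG
The upstream window held 36 CG pairs and 74.0% G or C, and the downstream window 4 CG pairs and 43.6% G or C. Over 32851 windows of the same length in the RefSeq table the median was 6 CG pairs, and 2.58% held 36 or more.

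Transcripts that begin within 500 bases of the upstream start carried most Map4 counts in every library, at 282, 168 and 182 counts in propyzamide and 138 and 177 in vehicle. The downstream start had 9, 0 and 0 counts in propyzamide and 2 and 21 in vehicle. The upstream transcripts were 80.1%, 76.9% and 88.8% of Map4 TPM in propyzamide and 50.2% and 67.7% in vehicle, so the shares did not overlap, beside the same 30.6% of single transcript shares. Their summed level did overlap, at 18.5, 12.7 and 16.4 TPM in propyzamide and 17.4 and 14.2 TPM in vehicle. A further 12 transcripts with other starts, 442 to 4322 bases long, had 11, 5 and 8 counts in propyzamide and 21 and 17 in vehicle. No test was made on these shares, and they were chosen for display after their values were seen.

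**Figure D4:**
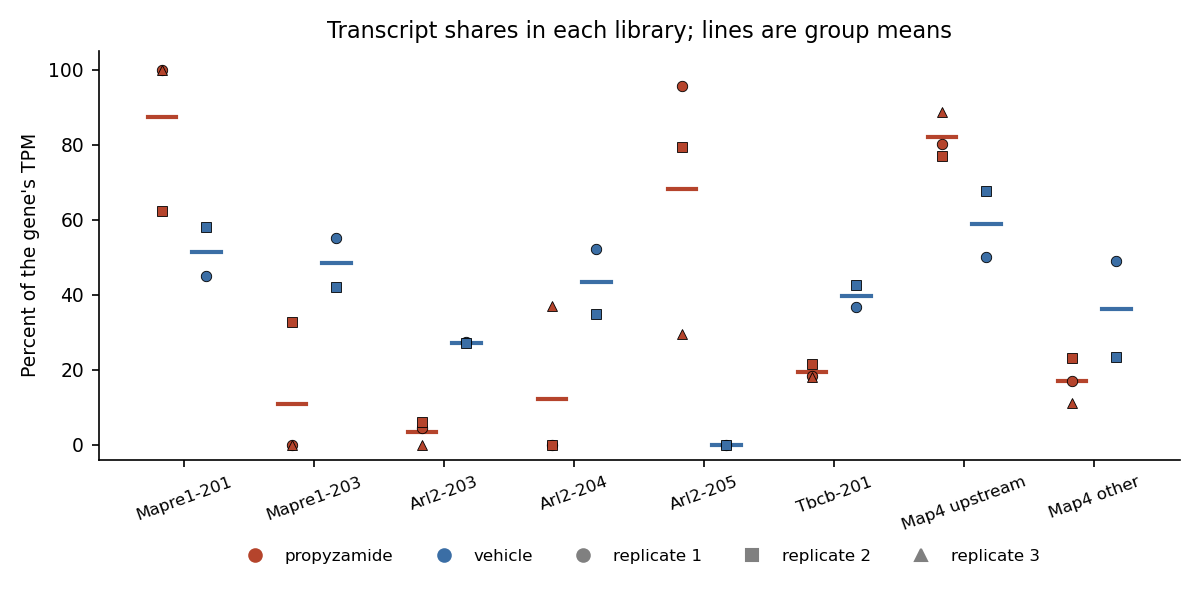
Percent of each gene's TPM assigned to selected Mapre1, Arl2 and Tbcb transcripts and to Map4 transcripts by start site, with 3 propyzamide libraries left of 2 vehicle libraries and lines for group means. Arl2-205 is at 29.7% to 95.6% in propyzamide and 0% in vehicle, and the upstream Map4 start is at least 76.9% in propyzamide and at most 67.7% in vehicle.

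The wider microtubule pathway was described from 8 lists of 98 genes, of which 81 were tested. Of the 81, 1 gene was called, Tuba1a, beside 1.90% of all genes tested, and 16 alternative settings gave 0 to 8. Groups did not overlap for 28 of the 81 (34.6%, beside 37.5% of all genes). The median log2 fold change was 0.38 over the 81, beside -0.018 over all genes. The lists with the highest medians were the destabilisers at 0.95 over 7 tested and the tubulins at 0.74 over 11 tested, and the tubulin-modifying enzymes had the lowest at -0.15 over 11 tested. In the destabiliser and tubulin lists, the genes under the filter on low counts all had a lower mean CPM in propyzamide than in vehicle. Summed over all 13 destabilisers the groups overlapped, at 77.1, 133 and 135 CPM in propyzamide and 93.1 and 80.0 CPM in vehicle.

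Upstream of the cofactors, prefoldin and CCT subunits had a median of 0.49. Of these, 12 of 14 were positive, beside 49.1% of all genes, and 0 were called, beside 1.90%. Cct6a, a chaperonin subunit, was at 73.4, 73.9 and 57.2 CPM in propyzamide, against 46.3 and 31.8 CPM in vehicle (log2 fold change 0.80 ± 0.36, SE; edgeR adjusted p = 0.258). Cct7, another subunit, was at 90.1, 102 and 93.8 CPM in propyzamide and 72.8 and 44.3 CPM in vehicle (edgeR adjusted p = 0.326). For both, the groups did not overlap and vehicle replicate 2 was the lowest. Among TBC-domain relatives and ARL2 partners, with a median of 0.26 over 8, Unc119 stood apart. Unc119, a carrier of lipid-modified proteins released by ARL2 and ARL3, was at 8.496, 11.3 and 7.91 CPM in propyzamide, against 22.3 and 47.1 CPM in vehicle. Both vehicle libraries lay above all 3 propyzamide libraries. Its log2 fold change was -1.90 ± 0.45 (SE), just short of the threshold at an edgeR adjusted p of 0.0511. Unc119 was called in 7 of 16 alternative settings, with adjusted p from 0.0193 with no filter on low counts, by edgeR, to 0.486, and DESeq2 gave 0.0307. Arl2bp, which binds ARL2, stood at 0.73 (edgeR adjusted p = 0.402).

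The factors that act with TTC5 in tubulin mRNA decay, its adaptor Scaper and the CCR4-NOT deadenylase genes, had a median of 0.39 over 10, with 0 called. Cnot6, a catalytic subunit, was at 45.9, 46.7 and 46.3 CPM in propyzamide and 35.2 and 19.9 CPM in vehicle (edgeR adjusted p = 0.328). Cnot1, the scaffold, was at 60.2, 54.4 and 64.5 CPM in propyzamide and 48.4 and 36.3 CPM in vehicle (edgeR adjusted p = 0.499). The alpha and beta tubulin messages, the targets of that decay, had positive estimates in 9 of 10 tested, beside 49.1% of all genes. Of the 10, 1 was called, beside 1.90% of all genes. Summed over 13 alpha and beta tubulin genes they were at 1329, 1026 and 1487 CPM in propyzamide and at 694 and 643 CPM in vehicle. The gamma tubulin gene tested, Tubg1, stood at -0.19 (edgeR adjusted p = 0.939).

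Tuba1a, an alpha tubulin gene strongly used by neurons, rose. It was at 92.4, 185 and 299.5 CPM in propyzamide, against 42.6 and 40.3 CPM in vehicle. Every propyzamide library was above vehicle, and the log2 fold change was 2.21 ± 0.49 (SE; edgeR adjusted p = 0.0438). The edgeR adjusted p passed 0.05 when a single library was left out, at 0.331 for vehicle replicate 1, 0.233 for vehicle replicate 2, 0.0613 for propyzamide replicate 2 and 0.108 for propyzamide replicate 3, but not for propyzamide replicate 1. The call was also lost with background subtracted (0.0597), at 10 CPM in 2 libraries (0.0503), with the transcript length offset (0.0520) and with limma on log2(TPM + 1) (0.174) and log2(TPM + 0.1) (0.237), and it was kept in the other 7 of 16 settings. Tuba1a, Tuba1b and Tuba1c are near-identical in coding sequence and can share reads, so their division is uncertain. Enteric neuron markers, 8 of 10 tested with 7 positive and 0 called, summed to 57.4, 143 and 101 CPM in propyzamide and to 38.5 and 76.0 CPM in vehicle, with Elavl3 at 0 in propyzamide replicates 2 and 3. The neuron markers include Tubb3 and Stmn2, which are also in the tubulin and destabiliser lists. Stmn2 alone was at 10.9, 50.3 and 38.4 CPM in propyzamide and 9.93 and 14.2 CPM in vehicle. Fibroblast markers, 8 of 8 tested with 8 positive and 0 called, summed to 355, 933 and 1075 CPM in propyzamide and to 461 and 337 CPM in vehicle. Adipocyte markers, 4 of 7 tested with 4 positive, summed to 56.8, 115 and 331 CPM in propyzamide and to 19.9 and 27.8 CPM in vehicle. Of these, 2 were called higher, Cidec and Cfd, and Cfd alone was at 192 CPM in propyzamide replicate 3. Lep was at 0 in the 3 propyzamide libraries, and Plin1 was at 0.34, 0 and 1.22 CPM there against 2.48 and 2.84 CPM in vehicle. Over all genes 49.1% of estimates were positive, 1.90% were called and 0.690% were called higher. Leukocyte markers, 4 of 10 tested with 1 positive and 0 called, summed to 45.5, 135 and 211 CPM in propyzamide and to 120 and 96.5 CPM in vehicle. Endothelial markers, 4 of 8 tested with 3 positive and 0 called, summed to 36.7, 22.6 and 65.7 CPM in propyzamide and to 51.3 and 48.2 CPM in vehicle. The neuron, fibroblast, leukocyte and endothelial sums overlapped between groups, and the adipocyte sums and the smooth-muscle sums given above did not. Within propyzamide the smooth-muscle, fibroblast, adipocyte and leukocyte sums were, like Tuba1a, lowest in replicate 1 and highest in replicate 3. The part of any of these cell types in the Tuba1a values was not tested.

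The relatives of the 3 regulators and the modifying enzymes gave no call in the reported fit, although some were called in other settings. Of the EB1 relatives and other plus-end proteins, with a median of 0.32 over 11, Clasp1, which stabilises plus ends, was at 19.0, 10.8 and 16.4 CPM in propyzamide and 31.0 and 29.5 CPM in vehicle (log2 fold change -0.96 ± 0.40, SE; edgeR adjusted p = 0.228). Mapre2, the EB2 gene, stood at -0.75 (edgeR adjusted p = 0.285) and so on the other side of 0 from Mapre1. Of the wall-binding proteins, with a median of 0.088 over 9, Map7d1 was at 18.4, 56.5 and 28.6 CPM in propyzamide and 4.96 and 13.1 CPM in vehicle (edgeR adjusted p = 0.101, called in 3 of 16 other settings), and Mtus1 stood at -0.63 (edgeR adjusted p = 0.384). Of the stathmin relatives, Stmn2 and Stmn3, which are used by neurons, stood at 1.45 and 2.22 (edgeR adjusted p = 0.212 and 0.244) with overlapping groups. Stmn2 was called in 1 of 16 other settings and Stmn3 in 1 of 15. Of the modifying enzymes, Ttll7, a tubulin glutamylase, was at 16.99, 53.9 and 32.3 CPM in propyzamide and 4.14 and 9.65 CPM in vehicle (edgeR adjusted p = 0.0570, called in 4 of 16 other settings), and Atat1, the alpha tubulin acetylase, stood at -1.41 (edgeR adjusted p = 0.219).

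**Figure D5:**
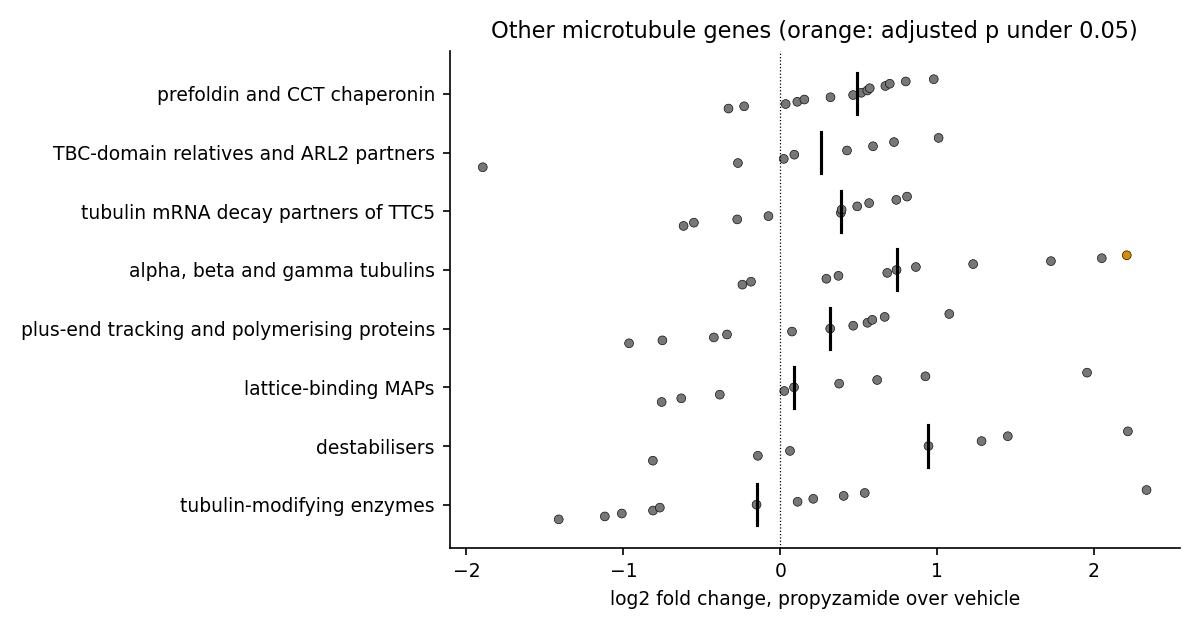
Log2 fold changes, propyzamide over vehicle, of the 81 tested genes in 8 microtubule lists, as points spread vertically within a list, with a bar at each list's median and the called gene in orange. Medians run from -0.15 for tubulin-modifying enzymes to 0.95 for the destabilisers, of which 7 of 13 were tested, and Tuba1a at 2.21 is the called gene.

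The genes whose levels followed a member most closely over the 5 libraries were found by the root mean square difference in centred log2(CPM + 1), over 11223 protein-coding genes. Nearest to Tbca were Ndufa7, a subunit of respiratory complex I, at 0.019, Fis1, a mitochondrial fission factor, at 0.042, and Nampt, an enzyme of NAD synthesis, at 0.046, where the median gene was at 0.65. Ndufa7 was at 94.1, 152 and 95.6 CPM in propyzamide and 71.1 and 67.5 CPM in vehicle. Nearest to Map4 were Snrpb2, a splicing protein gene, at 0.067, C2cd2l at 0.072 and Pigyl at 0.074, where the median gene was at 0.60. These genes were picked for the smallest differences, so their place below the median follows from the choice.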

How the data were processed

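Each library has a deposited transcript table in RSEM format, in which the authors give an estimated count, a TPM value and an effective length for 142647 transcripts, per the file headers. The submitters' processing notes list RSEM, kallisto and GRCm38, with no role or version. Libraries followed the SMART-Seq2 method, per the labels' protocols. Estimated counts were summed to genes and rounded, and 99.6% of gene identifiers were found in GENCODE M21. The gene test was edgeR's quasi-likelihood test (version 4.0.16, in R 4.3.3) after filterByExpr and TMM scaling, over all 5 libraries with group as the term, and Benjamini-Hochberg adjustment over 12024 genes at 0.05. CPM uses TMM-scaled library sizes, 1 count being 0.340 to 0.609 CPM. Intervals of fold changes are 95% and follow the fit's t distribution, and standard errors come from the F statistic. Transcripts were fitted likewise. DESeq2 1.42.0 and limma 3.58.1 on the authors' TPM were alternatives. Other alternatives were upper-quartile scaling, other filters on low counts, a transcript length offset, a replicate block, removal of rRNA-like and mitochondrial genes, subtraction of background and leaving out each library. The fit was tested on simulated data. No pair of libraries was a duplicate (chi-square per degree of freedom 16.0 to 48.1).

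All 10 genes are named, with each list's called genes or its 2 of smallest p, and nearest profiles for the gene of smallest p and that of highest mean CPM. Members and lists were chosen with earlier results of these data known, and the tissue genes Hoxd13, Slc10a2, Fabp2 and Car1 after their values were seen.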

Additional observations from a re-analysis of the deposited data

How the results depend on the processing

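The number of the 10 genes called was 0 under every alternative run, and of 160 single estimates 145 kept their sign and 15 turned. The average transcript length offset gave Arl2 0.31, Mapre1 -0.11 and Map4 -0.14. Limma on log2(TPM + 1) gave Stmn1 -0.23, Mapre1 -0.57 and Map4 -0.47, and on log2(TPM + 0.1) -0.23, -0.61 and -0.49. The medians of all genes in these limma fits were -0.39 and -0.47. Without vehicle replicate 1 Tbcb stood at -0.0083, Tbce at 0.11 and Map4 at -0.28. Without propyzamide replicate 1 Ttc5 stood at 0.14 and Stmn1 at -0.12, and without propyzamide replicate 2 Ttc5 stood at 0.20. Over the 5 libraries left out in turn, estimates ran from -0.0083 to 0.39 for Tbcb, -0.40 to 0.11 for Tbce, -1.29 to 0.20 for Ttc5, -0.12 to 0.48 for Stmn1 and -0.28 to 0.68 for Map4. The cause of the sign changes was not tested.

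Genes called numbered 229, with 63.8% lower. They were 565 with DESeq2, 1323 with no filter on low counts, 148 at 10 CPM in 2 libraries, 490 with limma on log2(TPM + 1) and 277 on log2(TPM + 0.1), 362 without rRNA-like and mitochondrial genes, 134 with background subtracted and 657 at an adjusted p under 0.1. Leaving out a library gave 36 to 499. The lower share was 54.0% with DESeq2, 74.8% with upper-quartile scaling, 86.5% and 85.6% with limma, and 36.4% without vehicle replicate 2. Over all genes the median was -0.018, and it moved to -0.14 with upper-quartile scaling and to -1.14 with no filter. Pathway genes called numbered 1. They were 2 with upper-quartile scaling, without rRNA-like and mitochondrial genes and with protein-coding genes only, 6 with DESeq2, 6 under the replicate block, 8 with no filter and 5 at an adjusted p under 0.1. They were 0 with background subtracted, with the length offset and with limma on either TPM scale, and 0 to 6 without a library. At 10 CPM in 2 libraries the 1 gene called was Unc119. For the pathway count, 8 of these settings were added after seeing the data.

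Same-numbered libraries deviated together only weakly (correlations 0.17 and 0.15 over 2 pairs) and nothing says that a number marks a shared animal or day. The replicate block, in which propyzamide replicate 3 has no partner and drops out of the contrast, called 639 genes, 49.3% lower, and 0 of the 10, with Ttc5 at -1.29 (edgeR adjusted p = 0.163). Rescaling TPM without rRNA-like and mitochondrial genes left all 10 genes in the same order of level. At 8 to 301 counts per gene and library, the 95% intervals of 8 of the 10 genes reached past 1 on the log2 scale in at least 1 direction, so these intervals include differences of that size. Counting error and spread between libraries were not separated.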
